A study of Mus musculus with 6 samples.

Results

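Ccl3, Ccl4, Ccl5 and Xcl1 are chemokine genes of T cells and other lymphocytes, and they make up 4 of the 16158 gene columns deposited for single cells of mouse skin. They were taken by name. The cells came from skin treated with 4-OH-Tam on NINJA mice of 6 to 12 weeks. NINJA is a strain whose neoantigen is turned on by recombination, and every mouse carried it. The samples were 2 mice with the antigen off (NO_AG), 2 with it on (AG) and 2 with it on plus a treatment that the labels call CPI and do not spell out (AG_CPI), with 1 droplet library (10x Genomics, 5′ chemistry) per mouse. P14 CD8 T cells, a T cell receptor transgenic population, were recovered from each mouse per the labels' protocol. The labels do not say how those cells entered the animals.

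Chemokines are small secreted proteins that draw cells along a gradient by binding receptors of the G protein-coupled class. Ccl3 and Ccl4 are released by T cells and myeloid cells after activation. Ccl3 acts among others on the receptor Ccr1, and Ccl5, which effector and memory CD8 T cells carry ready made, on Ccr1 and Ccr3. Xcl1 (lymphotactin) is made by activated CD8 T cells, NK cells and the dendritic epidermal T cells of mouse skin, and its receptor Xcr1 marks the dendritic cells that cross-present antigen to CD8 T cells.

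The coding sequences show the feature that separates the families. Each is drawn here from the GENCODE transcripts of GRCm38, from 10 codons before the first cysteine codon of the mature protein to 1 codon after the last, in lower case with the cysteine codons in capitals.
Ccl3: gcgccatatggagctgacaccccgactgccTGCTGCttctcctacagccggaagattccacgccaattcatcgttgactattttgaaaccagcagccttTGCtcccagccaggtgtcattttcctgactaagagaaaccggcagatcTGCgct
Ccl4: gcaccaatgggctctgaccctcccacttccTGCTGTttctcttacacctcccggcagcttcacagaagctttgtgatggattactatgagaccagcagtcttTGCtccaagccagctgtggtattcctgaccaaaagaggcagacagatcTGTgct
Ccl5: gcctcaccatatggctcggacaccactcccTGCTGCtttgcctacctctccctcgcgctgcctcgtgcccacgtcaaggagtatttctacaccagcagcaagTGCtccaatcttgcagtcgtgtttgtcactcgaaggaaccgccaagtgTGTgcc
Xcl1: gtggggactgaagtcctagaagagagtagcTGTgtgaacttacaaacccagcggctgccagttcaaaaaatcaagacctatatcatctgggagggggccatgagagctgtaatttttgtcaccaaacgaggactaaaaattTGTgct
Ccl3, Ccl4 and Ccl5 hold 4 cysteine codons, with the first pair next to each other, which is what the CC family is named for. In Ccl3 they are codons 34, 35, 57 and 73, in Ccl4 codons 34, 35, 58 and 74, and in Ccl5 codons 33, 34, 57 and 73, counted from the start codon. Xcl1 holds 2, codons 32 and 69, and lacks the other pair. Ccl3 (ENSMUSG00000000982, chr11:83647844-83649355, minus strand), Ccl4 (ENSMUSG00000018930, chr11:83662584-83664683, plus strand) and Ccl5 (ENSMUSG00000035042, chr11:83525778-83530518, minus strand) lie in the CC chemokine cluster of chromosome 11, with 13228 bases between Ccl3 and Ccl4 and 117325 between Ccl5 and Ccl3. Xcl1 (ENSMUSG00000026573, chr1:164931644-164935527, minus strand) lies alone on chromosome 1. Each gene has 3 exons, and coordinates are those of GRCm38 (mm10), the build of the files.

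Of 21178 cells deposited, 20464 were kept, with 5903724 to 24656382 UMIs (transcript molecules counted by barcode) per library. Cells were clustered and named by marker genes, since no cell annotation was used here, so class names are rebuilt. A CD8 T cell was a cell of an alpha-beta T-like cluster that had Cd8a or Cd8b1 and had no UMI of Cd4 or Trdc. There were 3191, of which 95.9% had Cd3e, a T cell receptor subunit, and 1.60% had the myeloid gene Lyz2. CD4 T cells had Cd4 and no UMI of Cd8a, Cd8b1 or Trdc. The rest of the alpha-beta T-like clusters, called other alpha-beta T-like cells, is a remainder and no cell type of its own. A cell with Cd8a or Cd8b1 that also had Trdc falls in it. This remainder held 126 cells in the NO_AG mice, 657 in the AG mice and 828 in the AG_CPI mice. Of 1168 cells in clusters led by Trdv4, the delta segment of dendritic epidermal T cells, 96.9% had Trdv4 itself. The 389 innate-like lymphocytes had the granzyme Gzmc in 60.2% and the NK receptor Ncr1 in only 16.97%, and 64.5% had Cd3e, so they are a mixed class. The 1232 monocyte/macrophage-like cells, called macrophages from here on, had Lyz2 in 94.1%. A cluster of 670 cells, L10, led by Tnfrsf4, Foxp3 and Ctla4 and with Cd4 among its markers, matched the lists of ILC2-like and alpha-beta T-like cells alike. It was left unnamed and is in no T cell class here. Mouse 1 of AG_CPI stood apart, because its cells other than alpha-beta T cells had the Y-linked Ddx3y in 16.0% and Xist in 3.03%, while its alpha-beta T cells had Xist in 57.2%. No cell of the other 5 mice had Ddx3y. The main tests of AG_CPI are therefore also given without it.

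Levels below are UMIs per 10000 UMIs of each cell, as the mean of a class in 1 mouse. Comparisons used limma on log2(mean + 0.1) with mice as replicates, n = 2 per group, and p-values adjusted over all genes tested. An exact permutation test of 2 mice against 2 cannot go below p = 0.333, so every call draws on a spread that limma pools over genes.

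**Figure D1:**
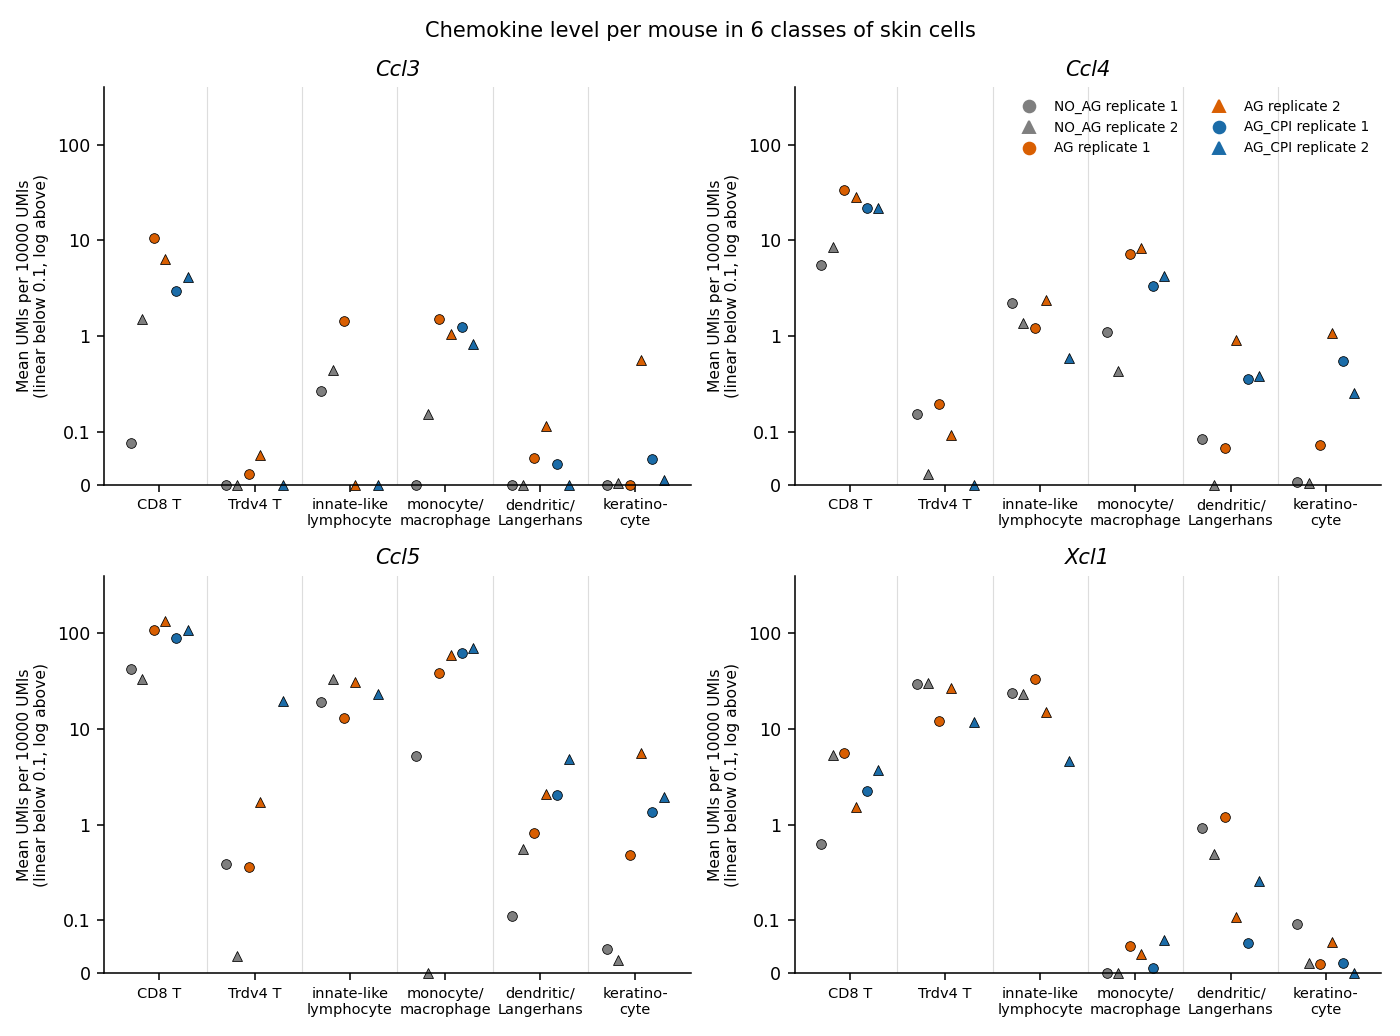
Mean UMIs per 10000 UMIs of each chemokine (vertical axis, linear below 0.1 and logarithmic above) in 6 classes of skin cells, 1 point per mouse with at least 10 cells of the class, coloured by group. Ccl4 and Ccl5 of CD8 T cells sit higher in the AG and AG_CPI mice than in the NO_AG mice, and Xcl1 is highest in Trdv4 T cells and innate-like lymphocytes.

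Across the classes, the 3 CC chemokines and Xcl1 had different carriers. The 6 lymphocyte and macrophage classes are given by the mean over the mice with at least 10 of their cells, from high to low, and other classes are left out of these orders. For Ccl5, CD8 T cells came first at 85.7 ± 39.8 (SD, n = 6 mice), then the other alpha-beta T-like cells at 78.1 ± 55.3, macrophages at 39.4 ± 30.4, CD4 T cells at 33.7 ± 31.0, innate-like lymphocytes at 24.1 ± 8.46 (n = 5), and Trdv4 T cells at 4.38 ± 8.43 (n = 5). The range of each of these classes overlapped that of the next. These means pool the 3 groups, and classes with n = 5 lack AG_CPI mouse 1, so the order within a group can differ. In the NO_AG mice alone Ccl5 averaged 37.8 in CD8 T cells, 26.5 in innate-like lymphocytes and 11.55 in the other alpha-beta T-like cells. It averaged 7.99 there in CD4 T cells, 2.61 in macrophages and 0.208 in Trdv4 T cells. For Ccl4 the order was the other alpha-beta T-like cells at 22.4 ± 18.5, CD8 T cells at 19.9 ± 11.04, CD4 T cells at 18.3 ± 31.5, macrophages at 4.12 ± 3.18, innate-like lymphocytes at 1.56 ± 0.747 and Trdv4 T cells at 0.0918 ± 0.0831. Here too the ranges of neighbours overlapped, except that the innate-like lymphocytes (0.587 to 2.38) lay wholly above the Trdv4 T cells (0 to 0.193).

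Ccl3 was at 9.39 ± 17.9 in CD4 T cells, 5.45 ± 6.07 in the other alpha-beta T-like cells, 4.31 ± 3.82 in CD8 T cells, 0.799 ± 0.605 in macrophages, 0.426 ± 0.588 in innate-like lymphocytes and 0.0151 ± 0.0243 in Trdv4 T cells, and all neighbours overlapped. The first place of CD4 T cells rests on 15 cells of AG_CPI mouse 1 at 45.3. Without that mouse they were at 2.21 ± 3.48 (SD, n = 5 mice), below CD8 T cells at 4.58 ± 4.201, and for Ccl4 they were at 5.87 ± 9.04. A cluster of 39 cells led by Hdc, the histidine decarboxylase gene, was higher still for Ccl3 and Ccl4, but only AG mouse 2 had 10 of its cells. Xcl1 ran the other way, at 22.1 ± 9.40 in Trdv4 T cells (n = 5), 20.1 ± 10.8 in innate-like lymphocytes (n = 5), 3.19 ± 2.05 in CD8 T cells, 2.13 ± 1.01 in the other alpha-beta T-like cells, 0.0838 ± 0.142 in CD4 T cells and 0.0268 ± 0.0272 in macrophages. Trdv4 T cells (11.7 to 30.15) lay wholly above CD8 T cells (0.633 to 5.645), and CD8 T cells lay wholly above macrophages (0 to 0.0627). Keratinocyte-like cells, taken as the background class, averaged 0.103 for Ccl3, 0.325 for Ccl4, 1.59 for Ccl5 and 0.0350 for Xcl1 over the 6 mice. The remaining classes, among them endothelial-like, fibroblast-like and ILC2-like cells, were at 5.94 or less for each of the 4 genes. Plasmacytoid dendritic-like cells of 3 mice, were at 5.88 for Ccl4.

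In CD8 T cells, antigen-bearing skin was compared with antigen-off skin. Their CD8 T cells were not alike. Cells with Trbv13-3, the P14 beta segment, numbered 1 and 6 in the NO_AG mice and 241 and 244 in the AG mice. This comparison cannot tell a change in such numbers from a change in RNA per cell. Cells with another segment are compared further below. Ccl3, Ccl4 and Ccl5 rose and Xcl1 did not pass the test. Ccl4 was at 5.47 and 8.44 UMIs per 10000 in the NO_AG mice, 33.6 and 28.5 in the AG mice, and 21.6 and 21.9 in the AG_CPI mice. Every mouse with antigen lay above both without, and both AG_CPI mice lay below both AG mice. The difference of AG from NO_AG was 2.26 on the log2(mean + 0.1) scale (SE 0.18, 95% interval 1.86 to 2.67, limma adjusted p = 5.8e-05). Ccl5 was at 42.3 and 33.25 in the NO_AG mice, 107 and 134 in the AG mice, and 89.1 and 108 in the AG_CPI mice. The AG and NO_AG mice did not overlap, and AG_CPI and AG did. The Ccl5 difference of AG from NO_AG was 1.76 (SE 0.16, interval 1.41 to 2.12, limma adjusted p = 1.3e-04).

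Ccl3 was the most uneven of the CC chemokines. It was at 0.0793 and 1.51 in the NO_AG mice, 10.7 and 6.46 in the AG mice, and 2.97 and 4.18 in the AG_CPI mice. The 3 groups did not overlap. The difference of AG from NO_AG was 4.05 (SE 0.69, interval 2.54 to 5.56, limma adjusted p = 0.0135). The size depends on the NO_AG mice. A single cell of NO_AG mouse 2 held 96 of that gene's UMIs, at 310.8 per 10000. The difference was 2.50 without NO_AG mouse 1 and 5.60 without NO_AG mouse 2. The call was lost with no filter on low genes (adjusted p = 0.217) and with a spread that shrinks less for uneven genes (adjusted p = 0.362). It was lost without AG mouse 1 (0.0686) and without AG mouse 2 (0.118) too.

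The share of CD8 T cells with a UMI moved the same way. For Ccl3 it was 1.98% and 4.72% in the NO_AG mice, 28.3% and 34.8% in the AG mice, and 18.4% and 25.0% in the AG_CPI mice. The share for Ccl4 was 28.7% and 25.8%, then 55.9% and 57.3%, then 53.6% and 58.2%. The share for Ccl5 hardly moved, at 74.3% and 76.7%, then 83.9% and 83.9%, then 77.2% and 83.3%. In keratinocyte-like cells of AG mouse 2, the highest of the 6 mice in these shares, 10.5% had Ccl3 and 53.5% had Ccl5, at levels of 0.558 and 5.65 and at a median of 2580 UMIs per cell.

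Xcl1 in CD8 T cells did not sort by group. It was at 0.633 and 5.305 in the NO_AG mice, 5.645 and 1.54 in the AG mice, and 2.27 and 3.74 in the AG_CPI mice. The difference of AG from NO_AG was 0.71 (interval -0.89 to 2.32, limma adjusted p = 0.709), and its sign turned to -0.70 without NO_AG mouse 1. Of the 4 chemokines, 3 passed the test upward, against 1.05% of the 7410 genes tested. The 14 macrophage markers measured in these cells summed to 0.498 and 0.477 in the NO_AG mice, 1.85 and 4.61 in the AG mice and 4.90 and 3.48 in the AG_CPI mice, which is 0.168% to 2.70% of their sum in macrophages, so they moved with the groups at a low level.

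Between AG_CPI and AG, none of the 4 passed the test in CD8 T cells, against 0.081% of all genes. The differences were -1.23 for Ccl3 (interval -2.74 to 0.27), -0.53 for Ccl4 (-0.93 to -0.12), -0.30 for Ccl5 (-0.66 to 0.05) and -0.04 for Xcl1 (-1.65 to 1.56). The limma adjusted p was 0.843 for Ccl4 and 1.0 for the others, and without AG_CPI mouse 1 the values were -0.9999, -0.52, -0.17 and 0.30. Between AG_CPI and NO_AG, 2 of the 4 rose, against 1.88% of all genes upward. Ccl4 was higher by 1.74 (limma adjusted p = 3.1e-04) and Ccl5 by 1.46 (4.4e-04), while Ccl3 differed by 2.81 and missed the threshold (0.0558). Without AG_CPI mouse 1 these were 1.76, 1.61 and 3.06, with the same calls. The Ccl3 value came to 1.26 without NO_AG mouse 1 and to 4.37, past the threshold, without NO_AG mouse 2. The 3 comparisons share mice, so they are not separate evidence.

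The clusters that hold CD8 T cells differed between the groups. Clusters L2 and L4 held 51.5% and 30.7% of the CD8 T cells of NO_AG mouse 1, and 59.4% and 22.6% of those of mouse 2. Cluster L16, led by the granzymes Gzma and Gzmf, came almost wholly from the AG_CPI mice, with 183 and 201 of its 403 CD8 T cells. The chemokines were left out of the variable genes used to draw these clusters. The clusters come from the same cells, so their levels are a description. Cells also differ within them, and the plot of levels by CD8 cluster gives them by mouse.

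**Figure D2:**
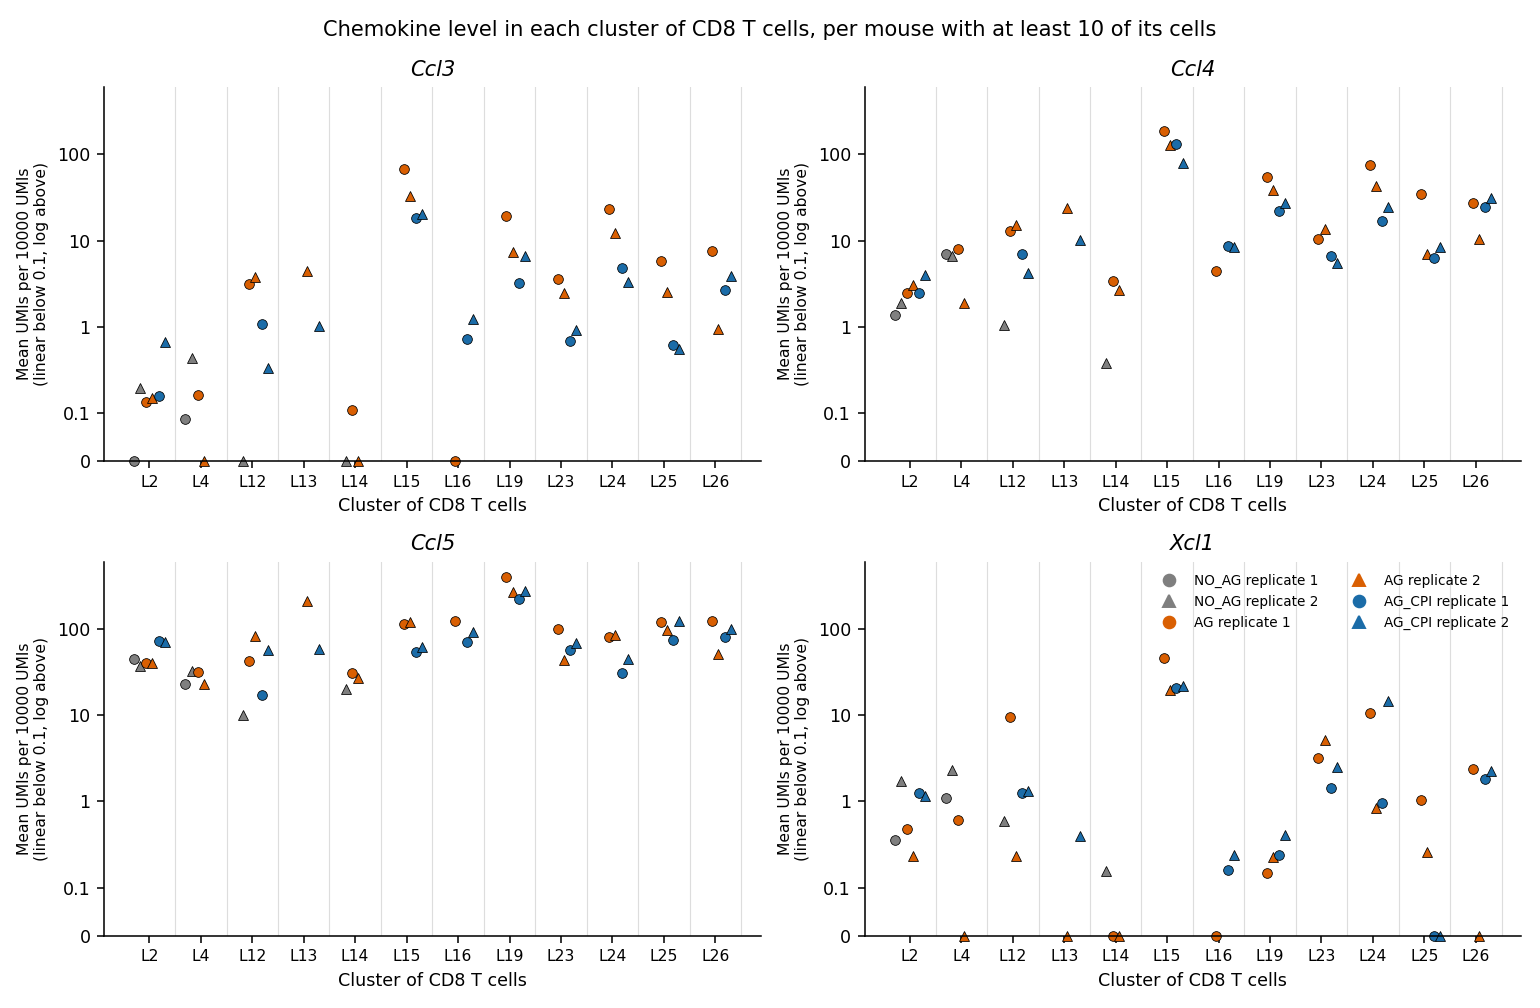
Mean UMIs per 10000 UMIs of each chemokine (vertical axis, linear below 0.1 and logarithmic above) in each cluster of CD8 T cells (horizontal axis), 1 point per mouse with at least 10 CD8 T cells in it. Ccl3, Ccl4 and Xcl1 peak in L15 and Ccl5 in L19, in every mouse shown there.

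Ccl3, Ccl4 and Xcl1 were concentrated in a small cluster of cells with cytokine genes. Cluster L15 had 223 CD8 T cells, led by Ccl1, the cytokine genes Ifng and Il2 and the signalling gene Rgs16. It held 47.0% of all Ccl3 UMIs of CD8 T cells, 39.4% of the Ccl4 UMIs and 60.5% of the Xcl1 UMIs. Within L15, Ccl3 was at 67.9 and 33.3 in the AG mice and 18.1 and 20.2 in the AG_CPI mice. Ccl4 was there at 185 and 128, and 131.5 and 79.0, and Xcl1 at 46.5 and 19.5, and 20.8 and 22.1. Ccl5 was there at 114.9 and 119.4, and 53.8 and 62.5. Both AG mice lay above both AG_CPI mice for Ccl3 and Ccl5 in this cluster, and the groups overlapped for Ccl4 and Xcl1.

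Ccl5 had another peak. Cluster L19, 505 CD8 T cells led by Gimap7 and the granzymes Gzmk and Gzmb, held 43.5% of the Ccl5 UMIs at a mean of 282.5 per 10000, with 0.258 for Xcl1. By mouse, Ccl5 there was 400.6 and 267 in the AG mice and 224 and 276 in the AG_CPI mice. In L16, the cluster of the AG_CPI mice, Ccl5 was at 82.9 and Ccl3 at 0.942. In L2, the main cluster without antigen, the means were 0.176 for Ccl3, 2.33 for Ccl4, 43.0 for Ccl5 and 0.944 for Xcl1.

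The top 10% of CD8 T cells by a gene's level held 79.4% to 100% of its total for Ccl3, 72.15% to 92.9% for Ccl4, 39.5% to 52.5% for Ccl5 and 94.8% to 100% for Xcl1, over the 6 mice. Ccl5 was thus spread over many cells and Xcl1 lay in few. After every cell was thinned to 1500 UMIs, Ccl4 was found in 90.9%, 87.35%, 83.7%, 80.85% and 86.3% of the cells with Ccl3, in NO_AG mouse 2, the AG mice and the AG_CPI mice in that order. Among cells without Ccl3 it was found in 15.3%, 34.6%, 37.0%, 40.3% and 40.6%. No thinned CD8 T cell of NO_AG mouse 1 had Ccl3, a count of 0 of 101 that allows up to 2.97% of cells with a UMI at this depth, and 1.98% had one before thinning. Xcl1 and Ccl3 met less evenly, since 20% to 37.5% of the Xcl1 cells of those 5 mice also had Ccl3 and 1.41% to 23.9% of the others did.

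CD8 T cells were then split by the beta variable segment of their receptor. Trbv13-3 is the segment of the P14 receptor, though host cells can use it too. Cells with a Trbv13-3 UMI came to 1 and 6 in the NO_AG mice, 241 and 244 in the AG mice, and 359 and 442 in the AG_CPI mice. Cells with another beta segment numbered 70 and 248, 342 and 112, and 119 and 173. With AG and AG_CPI mice pooled, the Trbv13-3 cells differed by 1.22 for Ccl3, 1.07 for Ccl4, 0.82 for Ccl5 and 0.13 for Xcl1, and none of the 4 passed the test (limma adjusted p from 0.346 to 0.965), against 0.428% of 7709 genes. None passed without AG_CPI mouse 1 either, at 1.695, 1.33, 1.35 and -0.0847. The groups were then fitted apart, a choice made after the levels per mouse had been seen.

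Under antigen alone, the CC chemokines were highest in the Trbv13-3 cells. Ccl5 was at 203 and 171 in the Trbv13-3 cells of the AG mice and at 36.7 and 50.5 in their other CD8 T cells. The NO_AG cells with another segment were at 49.05 and 30.5, which overlaps the latter. Ccl4 was at 60.1 and 37.4 against 11.4 and 13.6, with 6.81 and 9.14 in NO_AG, and Ccl3 at 22.4 and 8.615 against 1.74 and 2.84, with 0.114 and 1.77 in NO_AG. In both AG mice the Trbv13-3 cells were higher for each of the 3 genes. In limma with the mouse as a block, the differences within AG were 2.60 for Ccl3, 1.935 for Ccl4 and 2.12 for Ccl5 (largest adjusted p = 1.6e-16), and 3 of the 4 chemokines passed upward, against 4.02% of all genes. The split fits borrow nearly all of their spread from other genes. With the spread that shrinks less for uneven genes, Ccl4 and Ccl5 kept their calls and Ccl3 did not (adjusted p = 0.306). The Ccl3 difference was 1.62 without AG mouse 1 and 3.59 without AG mouse 2.

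With CPI the split was no longer upward for Ccl5 or Ccl3. Ccl5 was at 78.9 and 102 in the Trbv13-3 cells of the AG_CPI mice and at 129 and 124 in their cells with another segment, so the order turned over in both mice. Ccl4 was at 25.4 and 23.7 against 19.7 and 23.45, and Ccl3 at 3.60 and 4.38 against 4.06 and 5.08. Within AG_CPI the differences were -0.17 for Ccl3, 0.21 for Ccl4 and -0.47 for Ccl5, and 1 of the 4 passed the test, Ccl5 downward (limma adjusted p = 0.0013), against 1.75% of all genes. That call was lost without either AG_CPI mouse, at -0.22 without mouse 1, where Ccl3 was at -0.15 and Ccl4 at 0.08. The change of the segment difference from AG to AG_CPI was -2.77 for Ccl3, -1.72 for Ccl4 and -2.60 for Ccl5 (limma adjusted p = 1.6e-11, 1.6e-11 and 1.5e-21). So 3 of the 4 passed, against 4.8% of all genes, and without AG_CPI mouse 1 the values were -2.76, -1.87 and -2.36, and Xcl1, at -0.986, passed as well (limma adjusted p = 0.0249). The Ccl3 change lost its call with the spread that shrinks less (adjusted p = 0.465), and was -1.78 without AG mouse 1 and -3.76 without AG mouse 2.

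**Figure D3:**
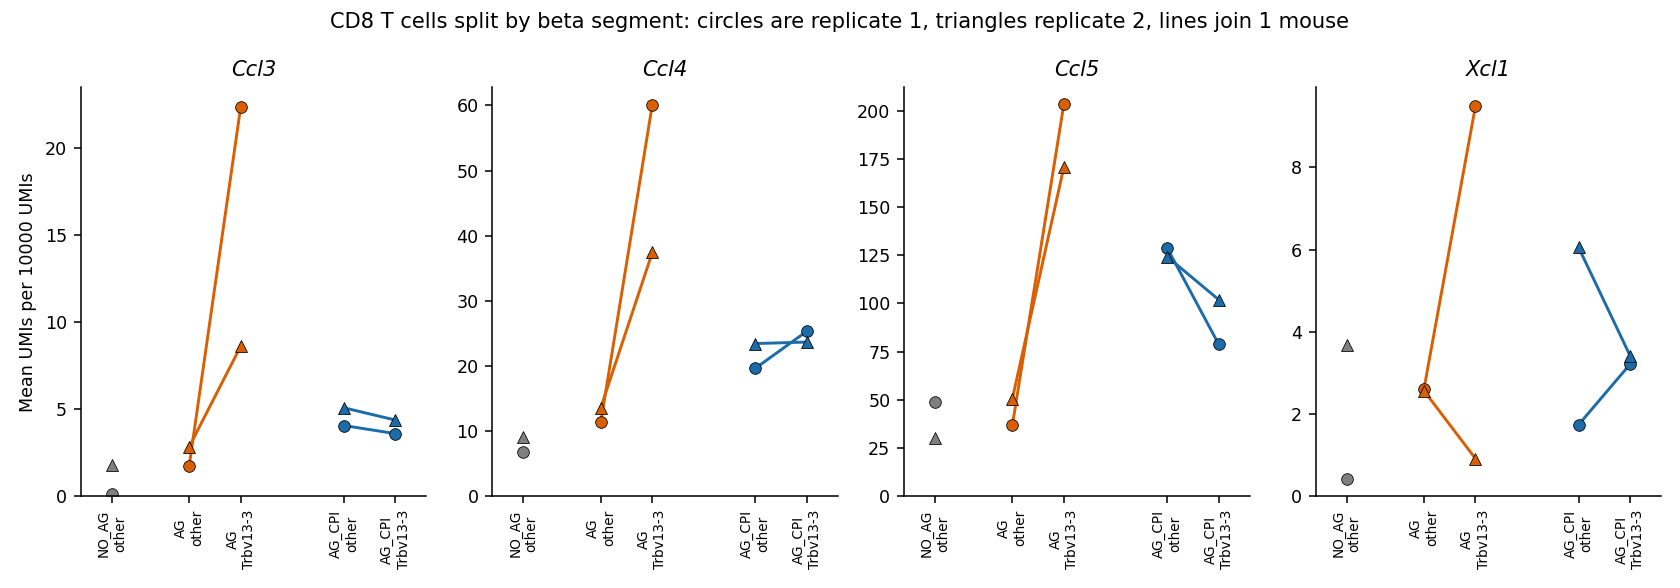
Mean UMIs per 10000 UMIs of each chemokine (vertical axis, from 0) in CD8 T cells with another beta segment and with Trbv13-3, 1 point per mouse, with a line joining the sets of 1 mouse. For Ccl3, Ccl4 and Ccl5 both AG lines rise steeply towards Trbv13-3 and the AG_CPI lines fall for Ccl3 and Ccl5 and rise by less for Ccl4. NO_AG mice had at most 6 Trbv13-3 cells, which are not drawn.

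Taken set by set, the cells with another segment gained Ccl5 from AG to AG_CPI, and no call was made from NO_AG to AG. From NO_AG to AG none of the 4 passed in these cells, against 0.224% of 7583 genes, with 1.97 for Ccl3 (limma adjusted p = 0.103), 0.75 for Ccl4 (0.096) and 0.26 for Ccl5 (0.859). The Ccl3 value was 0.39 without NO_AG mouse 1 and 3.52, past the threshold, without NO_AG mouse 2. From AG to AG_CPI 2 of the 4 rose, against 0.659% of genes upward, with 1.49 for Ccl5 (limma adjusted p = 1.5e-05) and 0.72 for Ccl4 (0.0443). Without AG_CPI mouse 1 they were 1.51 (0.0153) and 0.90 (0.202, no longer past the threshold). From NO_AG to AG_CPI 3 of the 4 rose, against 1.4% upward, with 2.90 for Ccl3 (3.9e-04), 1.47 for Ccl4 (5.4e-06) and 1.75 for Ccl5 (2.4e-07), and without AG_CPI mouse 1 with 3.07, 1.61 and 1.73. The Ccl3 value was 1.36 without NO_AG mouse 1 and 4.45 without NO_AG mouse 2, and its call was lost without AG_CPI mouse 2 (adjusted p = 0.0672).

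In the Trbv13-3 cells, AG_CPI differed from AG by -1.80 for Ccl3 (limma adjusted p = 0.0835), -0.97 for Ccl4 (0.107) and -1.07 for Ccl5 (0.0283). Only Ccl5 passed, 1 of 4, against 0.214% of 7019 genes. All 3 passed without any 1 of the AG and AG_CPI mice, at -1.66, -1.02 and -0.89 without AG_CPI mouse 1. The values were -1.13, -0.64 and -0.95 without AG mouse 1, and -2.50, -1.32 and -1.21 without AG mouse 2. The clusters differed beside it. L19, the cluster of high Ccl5, held 29.5% and 41.0% of the Trbv13-3 cells of the AG mice and 13.9% and 8.60% of those of the AG_CPI mice, and L16 held 31.2% and 31.7% of the latter. Cells with another segment in the AG_CPI mice were in L19 for 40.3% and 29.5%. Whether the cluster makeup accounts for the levels was not tested.

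Xcl1 followed no segment rule. In the AG mice it was at 9.49 and 0.916 in the Trbv13-3 cells and at 2.605 and 2.57 in the others, higher in mouse 1 and lower in mouse 2. The difference within AG was 0.23 and turned from 1.81 without AG mouse 2 to -1.34 without AG mouse 1. In the AG_CPI mice it was at 3.215 and 3.415 against 1.74 and 6.05.

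Trdv4 T cells, which carry the receptor of dendritic epidermal T cells, had Xcl1 in most cells in 5 of the 6 mice and low Ccl3 and Ccl4. Xcl1 was at 29.8 and 30.15 in the NO_AG mice, 12.1 and 26.7 in the AG mice, and 12.5 and 11.7 in the AG_CPI mice. Both NO_AG mice lay above the rest, though AG mouse 2 was close to them. The AG_CPI values rest on 6 and 19 cells, against 484 and 312, and 236 and 111, in the other groups. Of the cells, 88.6% and 90.1% had an Xcl1 UMI in the NO_AG mice, 74.6% and 74.8% in the AG mice, and 100% and 47.4% in the AG_CPI mice. The difference of AG from NO_AG was -0.66 (interval -1.43 to 0.12, limma adjusted p = 0.693). It was -1.25, past the threshold, without AG mouse 2, when 301 of 7716 genes were called.

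The Trdv4 clusters were unequal between mice. L1, with Xcl1 at 33.8 and 37.5, held 376 and 198 of the NO_AG cells, and only 26 and 2 of the AG cells, where it was at 12.65 in AG mouse 1. L8 was at 15.9 and 17.4 in the NO_AG mice and at 12.1 and 25.4 in the AG mice. L28 came almost wholly from AG mouse 2, with 86 of its cells there at 27.5. So the AG mouse with the higher Xcl1 was also the one with a cluster of its own.

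Ccl3 was at 0, 0, 0.0194, 0.0558, 0 and 0 in the Trdv4 T cells of the 6 mice in the order above, Ccl4 at 0.193 or less, and Ccl5 at 0.383, 0.0324, 0.358, 1.72, 0 and 19.4. The last Ccl5 value comes from 19 cells, of which 1 held 87 UMIs at 295.8 per 10000. None of the 3 chemokines tested passed the test between AG and NO_AG, against 0% of 7926 genes (586 of them at an unadjusted p under 0.05). The Ccl5 difference was 1.93 (limma adjusted p = 0.66), and it passed without NO_AG mouse 1 (2.87, when 15 of 7655 genes were called) or without AG mouse 1 (2.94, when 1895 of 7731 genes were called). It was 0.985 without NO_AG mouse 2, 0.912 without AG mouse 2, 3.92 with predicted doublets kept and 0.0673 with a gate on markers alone, and passed in none of these. The Ccl4 difference was 0.49 (0.795), and 2.74 (0.228) with predicted doublets kept. Ccl3 was below the filter on low values. The effect of antigen in CD8 T cells differed from that in Trdv4 T cells by 1.86 for Ccl4 (limma adjusted p = 0.0717), -0.04 for Ccl5 (0.987) and 1.43 for Xcl1 (0.618), and none of these 3 passed, against 0.277% of 8300 genes upward. For Ccl3 this difference, 3.70, restates the change in CD8 T cells and is not counted, since the Trdv4 T cells of the NO_AG and AG mice had 2 UMIs of it in all.

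Innate-like lymphocytes carried Xcl1 and Ccl5 in every mouse. Xcl1 was at 23.8 and 23.2 in the NO_AG mice, 33.5 and 15.2 in the AG mice, and 55.1 and 4.67 in the AG_CPI mice. The AG pair lay on either side of the NO_AG pair. Ccl5 was at 19.35 and 33.6, then 13.2 and 31.4, then 62.9 and 23.1, and Ccl4 at 2.24 and 1.37, then 1.22 and 2.38, then 4.11 and 0.587. AG_CPI mice had 9 and 15 of these cells, and NO_AG mice 196 and 99. None of the 4 chemokines passed between AG and NO_AG, against 0% of 7372 genes (638 at an unadjusted p under 0.05), with differences of -0.24, -0.18, -0.47 and -0.21 for Ccl3, Ccl4, Ccl5 and Xcl1 (limma adjusted p from 0.73 to 0.96). Without either AG mouse some of these passed with opposite signs, as for Xcl1 at -0.82 without AG mouse 1 and 0.49 without AG mouse 2. In these fits 2184 of 7082 and 940 of 7149 of all genes were called.

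Macrophages of antigen-bearing skin had Ccl5, Ccl4 and Ccl3 where those of antigen-off skin had little. Ccl5 was at 5.22 and 0 in the NO_AG mice, 38.8 and 59.6 in the AG mice, and 61.7 and 70.9 in the AG_CPI mice. Ccl4 was at 1.10 and 0.429, then 7.19 and 8.35, then 3.35 and 4.27. Ccl3 was at 0 and 0.152, then 1.51 and 1.06, then 1.25 and 0.826. No mouse without antigen reached any mouse with it. The NO_AG values rest on 34 and 16 cells, against 177 to 552 in the other mice. The differences of AG from NO_AG were 3.35 for Ccl3, 3.69 for Ccl4 and 6.30 for Ccl5 (SE 0.46, 0.41 and 1.48), with a limma adjusted p of 0.0099 for Ccl4 and 0.0473 for Ccl5. With a pseudocount of 0.5 the Ccl3 difference was 1.78, and the Ccl5 call was lost in 5 of the 9 alternatives that kept all mice. Ccl4 passed upward, against 7.61% of 7492 genes. Ccl3 had 1 UMI in the NO_AG macrophages. Ccl5 had 28 there, all in mouse 1, where 1 cell held 27 of them at 172.5 per 10000. Both genes met the filter through the mice with antigen, so their fits are a description and are not counted. Xcl1 (0.0627 at most) was below the filter. The median gene of these macrophages differed by 0.37 in that comparison, and by 0.08 without the TMM scaling between mice.

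The Ccl5 value depends on the NO_AG mouse at 0, and was 3.54 without it and 9.01 without the other, and for AG_CPI 4.01 and 9.48. Without a NO_AG mouse 2687 to 4039 of all genes were called in these comparisons. Fits without an AG or AG_CPI mouse called none of the 3, and only 0 to 16 of all genes. From AG to AG_CPI none passed, against 0% of genes (88 at an unadjusted p under 0.05), with -0.28, -1.01 and 0.47 for Ccl3, Ccl4 and Ccl5, and -0.55, -0.83 and 0.58 without AG_CPI mouse 1. From NO_AG to AG_CPI Ccl4 passed, against 8.32% upward, with 2.69 (limma adjusted p = 0.0155). Ccl5, at 6.77 (limma adjusted p = 0.0374), and Ccl3, at 3.06, are not counted here either. Without AG_CPI mouse 1 Ccl4 and Ccl5 were at 2.87 and 6.89 and neither passed (adjusted p = 0.202 and 0.26). With a pseudocount of 0.5 the Ccl3 value was 1.56.

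T cell RNA in the macrophages was measured beside this. The 14 alpha-beta T cell markers summed to 0.292 and 1.81 UMIs per 10000 in the macrophages of the NO_AG mice, to 1.37 and 1.33 in the AG mice and to 2.30 and 1.31 in the AG_CPI mice. Of the 14, 3 and 4 had a UMI in the NO_AG mice and 13 or 14 in the others, and Foxp3 was at 0 in 3 of the 6 mice. With antigen these sums were 1.32% to 2.33% of those in CD8 T cells of the same mouse. Ccl5 of the macrophages was 36.1% and 44.6% of the CD8 level in the AG mice and 69.2% and 65.4% in the AG_CPI mice, and Ccl4 was 15.5% to 29.3% over these 4 mice. Xcl1, which CD8 T cells have and macrophages are not known for, was 0.472% to 2.31%. Ccl3 was 14.1% to 42.1%. Keratinocyte-like cells, the background class, were at 0% to 8.64% of the CD8 level for Ccl3, 0.224% to 3.74% for Ccl4 and 0.446% to 4.23% for Ccl5 in these mice, and in AG mouse 2 their Ccl3 was 0.558 against 1.06 in macrophages. Of 4 cytotoxic granule genes tested in macrophages, 1 rose from NO_AG to AG, the proteoglycan gene Srgn, which macrophages also make, against 7.61% of genes upward. From NO_AG to AG_CPI Srgn rose again, and with it the granzymes Gzma and Gzmb, 3 of 4 against 8.32% upward, and none of the 4 passed without AG_CPI mouse 1.

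The clusters of macrophages differed in the same direction. L9, led by the resident macrophage genes Folr2, F13a1 and Retnla, held 28 of the 34 and 14 of the 16 macrophages of the NO_AG mice. Its Ccl5 was 0.181 and 0 in these mice, 1.62 and 0.401 in the AG mice, and 3.05 and 4.315 in the AG_CPI mice. L20, led by Ms4a7 and the complement gene C1qb, had Ccl5 at 43.6 and 65.7, and 45.6 and 63.9, and L27, led by the elastase gene Mmp12 and the acute phase gene Saa3, at 77.8 and 91.0, and 84.3 and 88.7. NO_AG mice had 3 and 2 cells of L20, with Ccl5 at 57.5 and 0, and none of L27. The value of 57.5 comes from 1 cell, which held 27 UMIs at 172.5 per 10000. In L9 every mouse was thus at 4.315 or less, and the part of the cluster makeup in the Ccl5 difference was not tested.

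Over all cells kept, the skin as a whole gained the 3 CC chemokines. Ccl5 was at 2.11 and 4.33 in the NO_AG mice, 40.1 and 37.7 in the AG mice, and 68.1 and 69.0 in the AG_CPI mice. Ccl4 was at 0.280 and 0.786, then 12.9 and 9.64, then 15.8 and 15.5. Ccl3 was at 0.0175 and 0.136, then 4.07 and 3.37, then 2.635 and 2.96. AG differed from NO_AG by 4.58 for Ccl3, 4.39 for Ccl4 and 3.77 for Ccl5 (limma adjusted p = 0.0028, 0.0038 and 0.0032), 3 of 4 upward against 4.3% of 8763 genes. With a pseudocount of 0.5 the Ccl3 difference was 2.91, and 2.62 for AG_CPI, both past the threshold. AG_CPI differed from NO_AG by 4.25, 4.95 and 4.66 (6.7e-04, 7.0e-04 and 6.7e-04), again 3 of 4, against 17.3% upward, and by 4.34, 4.93 and 4.66 without AG_CPI mouse 1. None of the 4 passed between AG_CPI and AG, against 4.18% of genes, where Ccl5 differed by 0.89 (0.122), and by 0.89 (0.411) without AG_CPI mouse 1. In such sums, a change in the number of cells of a type and a change in RNA per cell cannot be told apart.

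Xcl1 of the whole skin did not follow. It was at 4.40 and 3.73 in the NO_AG mice, 2.80 and 1.17 in the AG mice, and 1.99 and 2.18 in the AG_CPI mice, with both NO_AG mice above the other 4. The difference of AG from NO_AG was -0.98 (interval -1.86 to -0.11, limma adjusted p = 0.169), and it passed, at -1.60, without AG mouse 1. That of AG_CPI from NO_AG was -0.73 (0.174), and -0.67 (0.43) without AG_CPI mouse 1. It passed without AG mouse 1 (0.00665) and without AG mouse 2 (0.00641), at -0.73 both times.

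The cells that held Xcl1 differed between groups. Trdv4 T cells held 61.8% and 57.3% of all Xcl1 UMIs in the NO_AG mice, 18.6% and 41.5% in the AG mice, and 1.44% and 2.72% in the AG_CPI mice. CD8 T cells held 0.29% and 9.84%, then 53.0% and 20.7%, then 49.5% and 68.0%. All alpha-beta T-like cells together, CD4 T cells included, held 1.23% and 10.0% of Xcl1 in the NO_AG mice and 86.4% and 94.1% in the AG_CPI mice. Trdv4 T cells numbered 484 and 312 in the NO_AG libraries and 6 and 19 in the AG_CPI libraries, and their Xcl1 level was 29.8 and 30.15 against 12.5 and 11.7. The part of each in the shares was not tested.

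For Ccl5, CD8 T cells held 40.9% and 55.7% of the UMIs in the NO_AG mice, 52.9% and 38.3% in the AG mice, and 46.4% and 50.8% in the AG_CPI mice. Macrophages held 1.12% and 0%, then 9.87% and 24.3%, then 24.4% and 18.7%. Innate-like lymphocytes held 36.7% and 21.6% of the NO_AG total, which was 2509 and 5011 UMIs in all. For Ccl3, the Hdc cluster held 24.0% of the UMIs of AG mouse 2 and 0.58% of those of AG mouse 1, while CD8 T cells held 26.5% and 56.4%. Ccl3 shares of NO_AG mouse 1 rest on 26 UMIs.

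**Figure D4:**
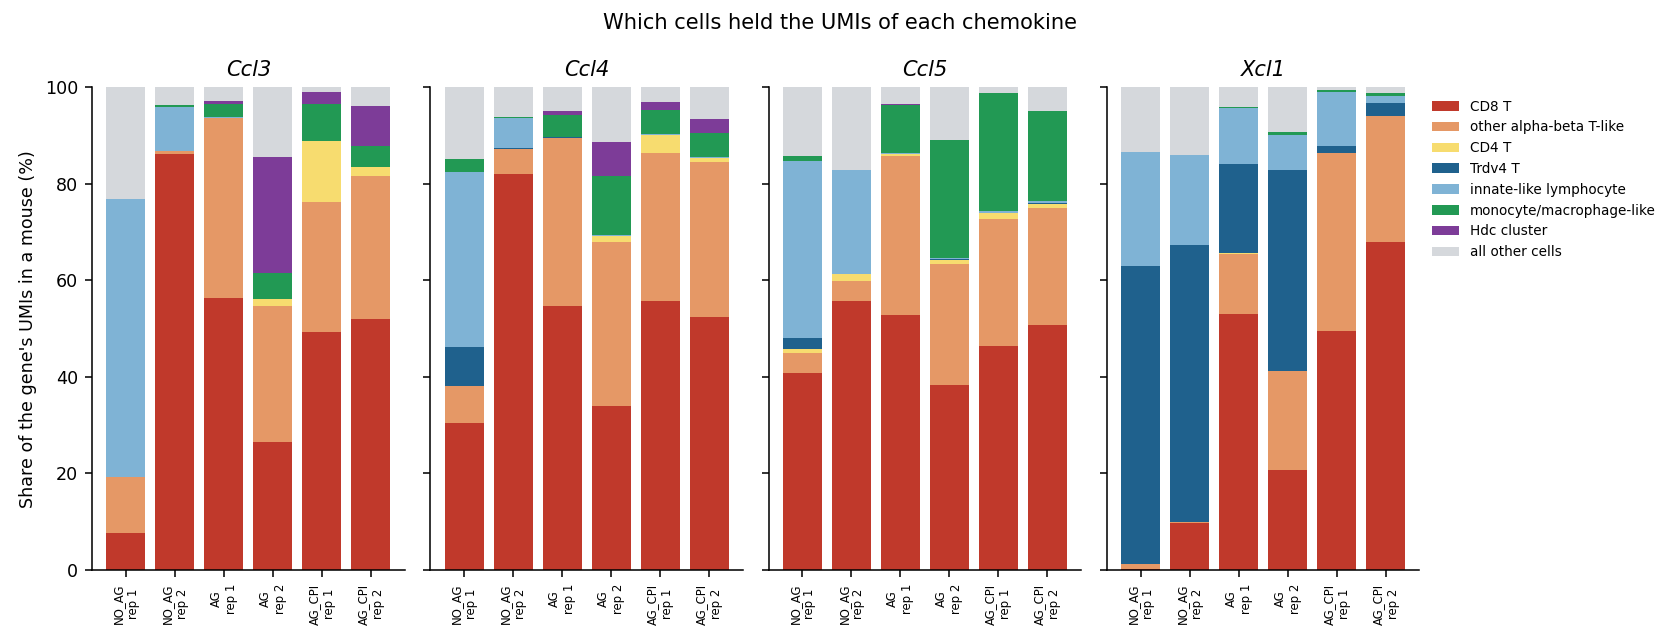
Share of each chemokine's UMIs, in percent (vertical axis), held by 7 classes of cells and by all other cells, 1 stacked bar per mouse. Xcl1 moves from Trdv4 T cells (61.8% and 57.3% in NO_AG) to alpha-beta T cells (86.4% and 94.1% in AG_CPI, CD4 T cells included), and macrophages hold a visible share of Ccl5 in the AG and AG_CPI mice.

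The receptors Ccr1 and Xcr1 were low, and each had a leading class. Ccr1 had 826 UMIs in macrophages, 128 in CD8 T cells, 82 in dendritic/Langerhans-like cells and fewer in any other class. Ccr1 was at 0.959 ± 0.626 (SD, n = 6 mice) in macrophages, and Xcr1 at 0.433 ± 0.405 in dendritic/Langerhans-like cells. In macrophages Ccr1 was at 0.164 and 0.245 in the NO_AG mice, 1.01 and 1.63 in the AG mice, and 1.51 and 1.19 in the AG_CPI mice. All mice with antigen lay above those without. The difference of AG from NO_AG was 2.53 for Ccr1 (limma adjusted p = 0.0125), and that of AG_CPI from NO_AG was 2.60 (0.0086). Without AG_CPI mouse 1 the latter was 2.45 and did not pass (0.193). The NO_AG macrophages were mostly L9 here too.

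In CD8 T cells Ccr1 was at 0 and 0.0101, then 0.0499 and 0.0379, then 0.241 and 0.247, with 0 and 1 UMIs in the NO_AG mice. Only the AG_CPI libraries reached the filter, so no test is given. Xcr1 in dendritic/Langerhans-like cells was at 0.102 and 0.0799 in the NO_AG mice, 0.270 and 0.260 in the AG mice, and 1.01 and 0.879 in the AG_CPI mice, with no overlap of the 3 groups. The class drew on different clusters in each group. L6, led by the Langerhans cell gene Cd207, had 194 and 125 cells in the NO_AG mice, 32 and 31 in the AG mice and none in the AG_CPI mice, while L11, led by Ccl22 and Ccr7 and holding Xcr1 among its markers, had 15 and 13, then 24 and 87, then 25 and 26. Xcr1 was not tested in that class, nor was the part of its makeup. Ackr2, a decoy receptor that takes up CC chemokines, was highest in fibroblast-like cells at 0.760, from only 8 UMIs.

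**Figure D5:**
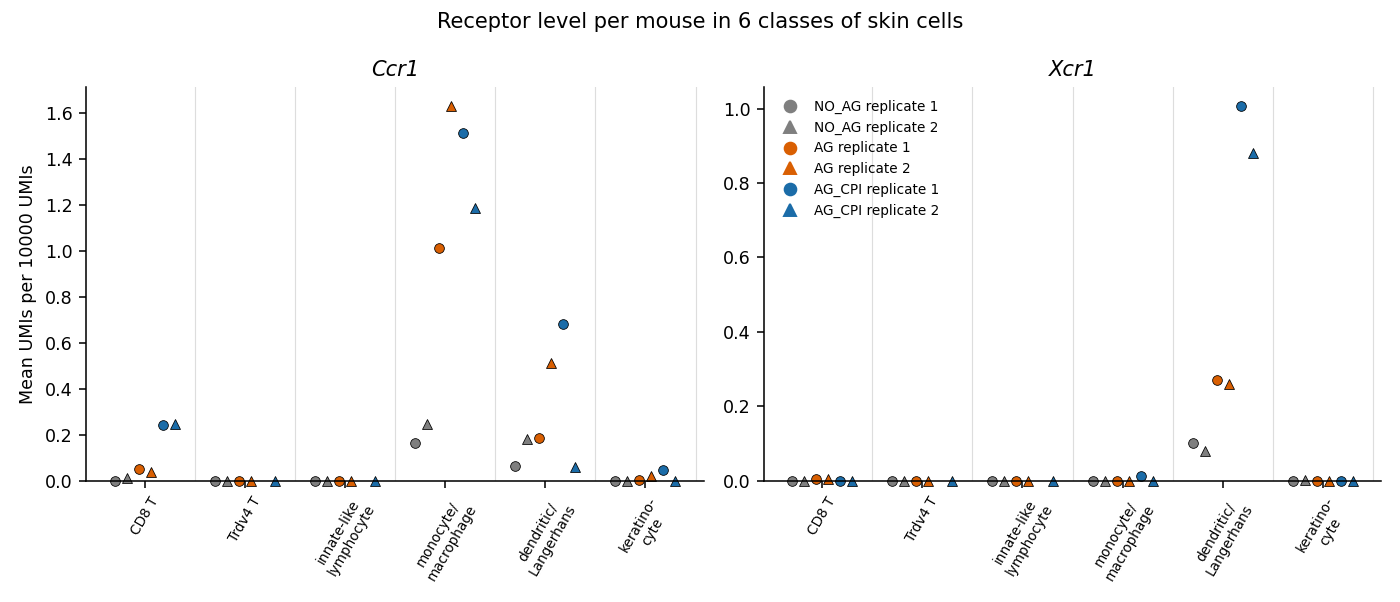
Mean UMIs per 10000 UMIs of the receptors Ccr1 and Xcr1 (vertical axes, from 0) in 6 classes of skin cells, 1 point per mouse with at least 10 cells. Ccr1 is highest in macrophages of AG and AG_CPI mice, and Xcr1 appears in dendritic/Langerhans-like cells, highest in the AG_CPI mice at 1.01 and 0.879.

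Other genes of activated CD8 T cells were set beside the chemokines, from lists chosen for their known roles, with earlier results of these data known. Of 7 cytotoxic granule genes, 6 rose from NO_AG to AG, among them Gzma by 3.32, Gzmk by 2.62 and the pore-forming Prf1 by 1.64, against 1.05% of all genes, with a list median of 1.38 against 0.03 over all genes. Of 12 genes that respond to receptor signals, 3 rose, the costimulatory receptor Tnfrsf9 by 2.65, the transcription factor Irf8 by 1.43 and the nuclear receptor Nr4a2 by 1.295, with a median of 0.46. Of 12 T cell cytokine genes 9 were tested and none passed, with a median of -0.23. Of the 16 other CC chemokines in the files, 2 could be tested in CD8 T cells and none passed.

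From NO_AG to AG_CPI, 5 of the 7 granule genes, 5 of the 12 receptor-response genes and 2 of the 9 cytokine genes tested (the growth factor Csf1 and the death ligand Fasl) rose, against 1.88% of all genes. The list medians were 1.34, 0.61 and -0.18, against 0.05 over all genes. Without AG_CPI mouse 1 the counts were 4, 2 and 1, against 0.536% of genes. From AG to AG_CPI, 1 of the 7 granule genes passed, Gzma upward, with or without that mouse, against 0.081% of genes in either direction (0.0138% upward without it), and none of the cytokine or receptor-response genes did.

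Of 8 other CC chemokines tested in macrophages, 2 fell and none rose from NO_AG to AG, against 1.2% of genes downward, and the list median of 0.35 was close to the 0.37 over all genes. Ccl6 was at 14.5 to 39.3 in the NO_AG mice, 2.01 to 3.53 in the AG mice and 1.43 to 2.55 in the AG_CPI mice, and fell by 2.67 (limma adjusted p = 0.0309). Ccl8, a ligand of resident macrophages, was at 28.4 to 32.9, then 1.55 to 2.42, then 5.19 to 7.37, and fell by 3.47 (0.0093). Ccl8 is among the leading genes of L9, which held 28 of the 34 and 14 of the 16 macrophages of the NO_AG mice, 24 of 177 and 18 of 552 in the AG mice, and 11 of 243 and 9 of 210 in the AG_CPI mice. The part of this makeup in the fall was not tested. These 2 also passed downward between AG_CPI and NO_AG, against 1.49% of genes, at -3.12 and -1.83. They were at -2.72 and -1.58 without AG_CPI mouse 1 and did not pass (adjusted p = 0.238 and 0.249).

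The genes with the most similar pattern were sought over 65 profiles, each 1 class in 1 mouse, in 14 classes, by Pearson's r of log2(mean + 0.1). The profiles share libraries and depth, so r is a description. The nearest to Ccl3 were Ccl4 (r = 0.90), Cd200r4 (0.81) and Gzmk (0.74), and Ccl4 had Ccl3 and Ccl5 (0.77) among its nearest. Ccl5 had Ms4a6b (0.85) and Abracl (0.77) among its nearest. The nearest to Xcl1 were Serp2 (0.90), Nrgn (0.88) and Gzmc (0.88). Xcl1 had an r of 0.11 with Ccl3, 0.16 with Ccl4 and 0.29 with Ccl5, all below the r between any 2 of the CC chemokines, of which the lowest was 0.66.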

How the data were processed

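Single-cell libraries of the skin of 6 mice were used, with 1501 to 14995 UMIs per cell. The deposited values are log10 values, log10(1 + UMIs per 10000 UMIs of the cell), as the recovered UMIs show, since 100% were whole within 0.1 under log10 and 68.1% to 71.0% under the natural logarithm. Cell Ranger 3.1 and mm10 are named in the submitters' processing notes, and filters on cells and genes before deposit are not given in the sources used here. The deposited genes hold 95.4% to 96.7% of a cell's UMIs.

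Values were turned back into UMIs per 10000. Cells with fewer than 200 genes or over 20% mitochondrial UMIs were dropped, as were predicted doublets (1.38% to 3.97% per library, scanpy 1.11.5). Clusters (Leiden, 70 in all, leukocytes clustered again after the first clusters were seen) were named from marker genes. Libraries shared 5 to 35 cell barcodes pairwise. Means per class and mouse with at least 10 cells, scaled by TMM, were compared with limma 3.58.1 (R 4.3.3) on log2(mean + 0.1), over genes with 10 UMIs in all and a mean of at least 0.1 in 2 libraries, with all 3 groups in 1 fit and Benjamini-Hochberg adjustment over all genes tested (called at 0.05). For the number of UMIs per group see the cells and depths above, and intervals on counts cover counting error only.

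On simulated CD8 T data of 7430 genes with 2 mice per group, the fit recovered 25.4% of genes changed 2-fold, 85.1% at 4-fold and 98.5% at 8-fold, with 7 false calls among 7230 unchanged genes. It understated log2 changes at the median by 0.15, 0.32 and 0.59. Every simulated gene had the same added spread between mice, so these rates do not carry over to uneven genes such as Ccl3. The members and gene lists were chosen with earlier results of these data known. The fits by beta segment and the less shrunken spread were added after the data had been seen. Named genes are the 4 members, the members of fixed lists of receptors, other CC chemokines, cytokines, granule and receptor-response genes, and the 3 nearest genes by Pearson's r. One of the genes this rule names is not reported here. Sequences and positions come from GENCODE transcripts of GRCm38. Alternatives changed the pseudocount to 0.5, the filter, the scaling, doublets, depth, clustering and gates, and left out each mouse.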

Additional observations from a re-analysis of the deposited data

Results flagged for a closer look

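The effect of antigen on Ccl3 differed between CD8 T cells and Trdv4 T cells by 3.70 on the log2(mean + 0.1) scale (limma adjusted p = 0.0409), a difference between cell types under the same contrast. Ccl3 entered this fit through the CD8 T cells alone, so the value restates their change and nothing is read from it. Its call was also lost without either AG mouse and under 6 other alternatives. Ccl3 was at 10.7 and 6.46 UMIs per 10000 in the CD8 T cells of the AG mice and at 0.0194 and 0.0558 in their Trdv4 T cells.

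The Trbv13-3 difference changed from AG to AG_CPI by -2.77 for Ccl3, -1.72 for Ccl4 and -2.60 for Ccl5, a difference between treatment groups under the same contrast. In both AG mice the Trbv13-3 cells were the higher for these 3 genes, and in both AG_CPI mice they were the lower for Ccl3 and Ccl5. This test was chosen after the levels per mouse had been seen. Groups of 2 mice are too small for a check of single outlying mice.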

How the results depend on the processing

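Of 830 results recomputed under an alternative that kept all mice, 759 kept their direction and their side of the threshold, and 399 of 525 did so when a mouse was left out. In CD8 T cells, Ccl4 and Ccl5 passed under all 16 alternatives against NO_AG, for AG and for AG_CPI, as did the CC chemokines of the whole skin under all 13. A fit without a mouse leaves its group with 1 sample, which is assumed to vary like the others. Values are log2 differences, and the cause of a change was not tested. With 2 mice and classes of few cells, depth limits Trdv4 T cells and innate-like lymphocytes of AG_CPI mice (6 to 19 cells), whose AG_CPI comparisons were not run.

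With no filter on low values, calls were lost for Ccl3 in CD8 T cells (4.05) and in the difference from Trdv4 T cells (3.70), for macrophages from NO_AG to AG (Ccl3 3.35, Ccl5 6.30, leaving 1 call) and to AG_CPI (3.06, 2.69 and 6.77, leaving 0), and for cells with another segment from AG to AG_CPI (Ccl4 0.72, leaving 1) and Ccl5 by segment within AG_CPI (-0.47, leaving 0). With the less shrunken spread, lost calls were Ccl3 in CD8 T cells (4.05), in the difference from Trdv4 T cells (3.70, leaving 0), in cells with another segment (2.90), within AG by segment (2.60) and in its change (-2.77), Ccl5 of macrophages (6.30) and Ccl5 by segment within AG_CPI (-0.47, leaving 0). Without TMM, macrophage Ccl5 (6.05 for AG, 6.50 for AG_CPI) and the Ccl3 difference from Trdv4 T cells (3.52, leaving 0) lost theirs. Thinning to 1500 UMIs lost macrophage Ccl5 (6.40 and 6.86), that Ccl3 difference (4.13, leaving 0) and Ccl5 by segment within AG_CPI (-0.45, leaving 0), turned the Ccl5 difference from Trdv4 T cells to 0.25, and gave 1 call in cells with another segment from NO_AG to AG. A cluster resolution of 0.5 lost macrophage Ccl4 (4.49 and 3.43) and Ccl5 (5.90 and 6.33), leaving 1 call each. With predicted doublets kept, the difference from Trdv4 T cells was 2.63 for Ccl3 (leaving 0), -0.42 for Ccl4 and -2.16 for Ccl5. A pseudocount of 0.5 gave 2 calls there, turned Ccl5 there to 0.81 and turned Ccl3 of innate-like lymphocytes to 0.19. A gate on markers alone turned Ccl4 of innate-like lymphocytes to 0.86 and Xcl1 of CD8 T cells from AG to AG_CPI to 0.20. Allowing Trdc in the CD8 gate turned that Xcl1 value to 0.0086 and the Ccl5 difference from Trdv4 T cells to 0.18, lost the Ccl3 one (4.08, leaving 0) and Ccl5 by segment within AG_CPI (-0.47, leaving 0), and gave 3 calls in Trbv13-3 cells.

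Same-numbered mice did not deviate together in CD8 T cells (r over 7410 genes of -0.05, -0.01 and -0.16). In fits with the replicate block, the calls were 1 in cells with another segment from NO_AG to AG (Ccl3 1.97, adjusted p = 0.0274) and 3 in Trbv13-3 cells from AG to AG_CPI, and Ccl3 of CD8 T cells passed from NO_AG to AG_CPI (2.81, 0.0114).

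Leaving out each mouse in turn gave these lowest and highest values. In CD8 T cells they were 2.50 and 5.60 for Ccl3 from NO_AG to AG, and for Xcl1 -0.70 and 2.14 to AG, -0.95 and 0.87 from AG to AG_CPI, and -0.75 and 2.09 from NO_AG to AG_CPI. In Trdv4 T cells they were -0.0515 and 0.80 for Ccl4, with 0 to 1 calls. In innate-like lymphocytes they were -2.25 and 1.77 for Ccl3, -0.52 and 0.25 for Ccl4, -0.97 and 0.11 for Ccl5, and -0.82 and 0.49 for Xcl1, with 0 to 3 calls. In macrophages from NO_AG to AG they were 2.77 and 3.84 for Ccl3, 3.04 and 4.33 for Ccl4, and 3.54 and 9.01 for Ccl5, and to AG_CPI 2.49 and 3.55, 2.04 and 3.32, and 4.01 and 9.48, each with 0 to 3 calls, and from AG to AG_CPI 0 to 1 calls. For Xcl1 of the whole skin from AG to AG_CPI they were -0.36 and 0.87, with 0 to 1 calls. For the difference of CD8 from Trdv4 T cells they were 2.09 and 5.28 for Ccl3, -0.91 and 0.81 for Ccl5, and -0.0758 and 2.93 for Xcl1, with 0 to 3 calls.

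By segment, with AG and AG_CPI mice pooled, Xcl1 ran from -0.41 to 0.63. In cells with another segment the range was -0.0821 to 0.58 for Ccl5 and -0.41 to 2.44 for Xcl1 from NO_AG to AG (0 to 3 calls), 0.57 to 0.90 for Ccl4 and -0.63 to 1.18 for Xcl1 from AG to AG_CPI (1 to 3 calls), and 1.36 to 4.45 for Ccl3 and -0.12 to 2.70 for Xcl1 from NO_AG to AG_CPI. In Trbv13-3 cells Xcl1 ran from -1.52 to 1.72, with 1 to 4 calls. The change of the segment difference ran from -1.77 to 1.39 for Xcl1. Within AG, Xcl1 ran from -1.34 to 1.81, and within AG_CPI, Ccl5 ran from -0.69 to -0.22 and Xcl1 from -0.74 to 0.86, with 0 to 1 calls.

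Over all genes, called counts moved by more than 1.5 times. They ran from 18 to 344 about 94 (CD8, NO_AG to AG), 0 to 14 about 6 (AG to AG_CPI), 48 to 525 about 208 (NO_AG to AG_CPI), 0 to 4039 about 660 and 0 to 3993 about 735 (macrophages), 0 to 1895 and 0 to 2184 about 0 (Trdv4 T and innate-like), and 35 to 957 about 526, 0 to 849 about 366 and 1186 to 3769 about 2973 (whole skin). By segment they ran from 11 to 171 about 15 (Trbv13-3, AG to AG_CPI), 0 to 37 about 17, 21 to 126 about 106 and 61 to 204 about 186 (another segment), 16 to 34 about 33 (pooled), 241 to 653 about 572 (within AG), 44 to 190 about 135 (within AG_CPI) and 140 to 422 about 370 (the change), and for CD8 against Trdv4 T cells from 2 to 41 about 24. Without TMM the calls that were higher went from 377 of 526 to 356 of 710 and from 1519 of 2973 to 1118 of 3279 in the whole skin, and from 570 of 660 to 122 of 177 and from 623 of 735 to 231 of 349 in macrophages.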

Other observations

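The 39 cells of the cluster led by Hdc, Ccl6, the cytokine gene Il4 and the transcription factor gene Gata2 were high in Ccl3, mostly in AG mouse 2, which had 29 of them. There were 0 of these cells in the NO_AG mice, 2 and 29 in the AG mice and 4 in each AG_CPI mouse. In the 29 cells of AG mouse 2, Ccl3 was at 189 UMIs per 10000, Ccl4 at 183, Ccl6 at 214 and Ccl9 at 35.7, while Ccl5 was at 4.875 and Xcl1 at 0. In the other mice Ccl3 of these cells was at 64.4, 39.5 and 165, and Ccl4 at 146, 131 and 307, from 2 to 4 cells each. The cluster held neutrophil markers (S100a8, S100a9, Retnlg, Cxcr2) and basophil markers (Gata2, Cd200r3, Fcer1a). The neutrophil name was set aside because Hdc, Gata2 and Cd200r3 were among its leading genes, and no other name was put in its place. Of its cells, 56.4% had Cd200r3, 43.6% Fcer1a, 38.5% Cxcr2, 7.69% S100a8 and 5.13% S100a9.

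The genes Ccl6 and Ccl9 lie between Ccl5 and Ccl3 on chromosome 11, and their highest level too was in the Hdc cluster. Ccl6 was at 10.5 in macrophages and 0.0426 in CD8 T cells, on average over the 6 mice, and Ccl9 at 2.81 and 0.0279. Ccl5, at the same locus, was at 39.4 and 85.7.

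The class named CD4 T cells was small, with the Foxp3 cluster L10 outside it, and Ccl3 in the 15 of AG_CPI mouse 1 was at 45.3, the highest value of any mouse in that class. In cluster L2, the CD8 T cells with another beta segment had Ccl5 at 37.8 and 40.7 in the AG mice and at 95.1 and 94.7 in the AG_CPI mice.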
